A study of Mus musculus with 6 samples.

Results

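The 36 genes described here are enzymes and regulators of glycolysis together with genes of the hypoxia response: hexokinases, the enzymes from glucose phosphate to pyruvate, lactate enzymes and transporters, oxygen sensors, and well known targets of the hypoxia-inducible factor HIF. They were chosen by name, as gene probes whose accession maps to one of the 36 symbols in a RefSeq table. The array held 58 probes for them. All 36 were among the 22503 genes and unnamed transcripts that passed a filter on dim probes, with 57 of their 58 probes, and the probe used for each passed the scanner's background test (well above background) in the 2 channels of each of the 6 arrays.

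The RNA came from mouse mammary tumors driven by the MMTV-PyMT transgene, in which the mouse mammary tumor virus promoter, active in mammary epithelium, expresses polyomavirus middle T. Late carcinoma cells, RANK+/+ or RANK-/-, had been transplanted into the mammary site of syngeneic C57BL/6 mice without any further treatment named in the labels, and live CD45- cells were sorted from the grown tumors, so that both groups were tumor fractions depleted of leukocytes. RANK, encoded by Tnfrsf11a, is the receptor activator of NF-kB. Each 2-color array compared 1 RNA of each genotype. There were 3 pairs of RNAs with 2 technical arrays (A and B) each, so n = 3 pairs. The RANK-/- RNA was labeled with Cy5 in pair 1 and with Cy3 in pairs 2 and 3. The design text calls the RNAs biological replicates and names RANK-/- for both sets of replicates, and the labels do not say whether they came from separate tumors, and p-values measure only the spread between these samples. The age of the mice is not given in the labels.

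Glycolysis splits glucose into pyruvate and yields a little ATP without oxygen, and lactate dehydrogenase with the lactate transporters lets the flux go on when mitochondria cannot take up the pyruvate. When oxygen falls, the prolyl hydroxylases of the EGLN family stop marking the alpha subunits of HIF for destruction, and HIF then raises most glycolytic genes along with genes for vessel growth, pH control and mitochondrial turnover. Solid tumors, mammary carcinomas among them, often hold poorly perfused regions in which these genes are high, and cells that divide fast also use much glucose.

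Tnfrsf11a was examined as a check of the labels. Its log2 signal ratio of RANK-/- over RANK+/+ was 2.03, 1.15 and 1.76 in pairs 1, 2 and 3, which is more signal where the label states a knockout. Whether its probe lies in the deleted part of the gene is not given in the sources used here. All directions below therefore rest on the sample labels as they stand, which the design text does not settle, and the groups are named by the channel label. Per array and channel, 52.0% to 58.8% of the gene probes passed the background test. So did all 7 markers of luminal epithelium and all 7 of fibroblasts. Ptprc, which encodes CD45, the protein used to remove leukocytes, still passed it on 5 arrays for RANK-/- and on 4 for RANK+/+.

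None of the 36 genes passed a test for a difference between the genotypes. By limma with Benjamini-Hochberg adjustment over all genes, 0 members were called, as were 0% of all genes (smallest adjusted p 1.00), and 1 member (Hk1) had an unadjusted p under 0.05, as did 646 of all genes. The rank product at a proportion of false positives under 0.05 called 0 members, beside 10 genes higher (0.0444%) and 10 genes lower (0.0444%) among all tested. The ratios of many members were large but differed from pair to pair. The median log2 ratio was -0.36 in pair 1, 0.07 in pair 2 and -0.18 in pair 3, against medians of 0.01, -0.01 and 0.00 over all genes. In pair 1, 24 members were below 0 (48.0% of all genes were), in pair 2 15 were (51.7%), and in pair 3 23 were (49.9%). At least 2-fold lower in pair 1 were 6 members (Hk2, Pgk1, Slc16a3, Pfkfb4, Bnip3 and Ankrd37), a size that 2.84% of all genes reached.

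**Figure D1:**
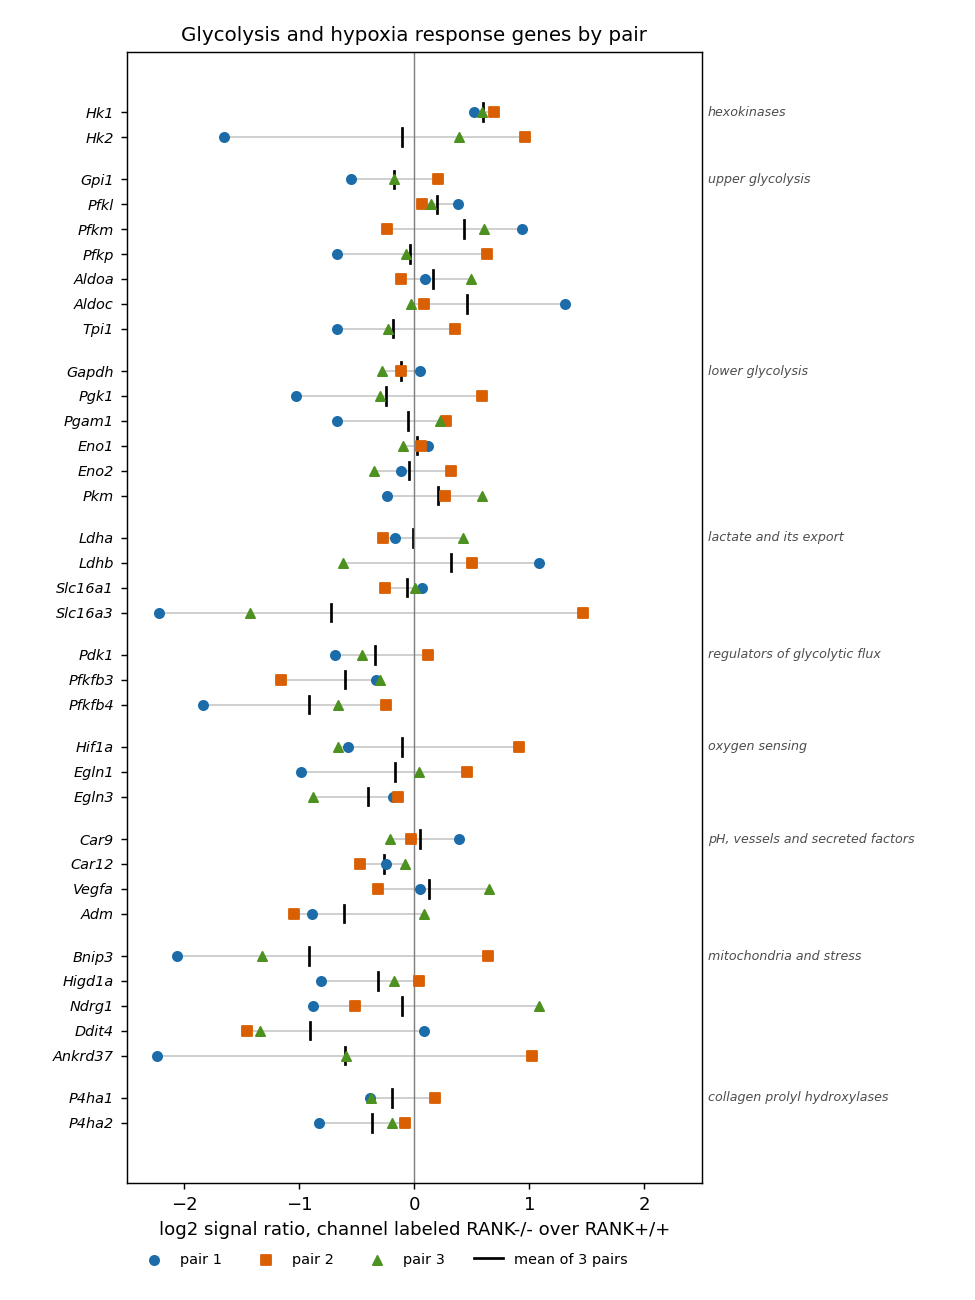
Log2 signal ratio of the channel labeled RANK-/- over that labeled RANK+/+ (x axis) for the 36 genes, ordered by role (right). Each symbol is 1 pair of RNAs (mean of arrays A and B), the gray line spans the 3 pairs and the black tick is their mean; for Hk1 and Pfkl all 3 symbols lie above 0, and for Pfkfb3, Pfkfb4, Egln3, Car12 and P4ha2 all lie below it.

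The SD over the 3 pairs was 0.09 to 1.94 for the members, and the SD between arrays A and B of a pair was 0.01 to 0.17. Arrays A and B carried the same dyes, so any dye effect lies in the pair SD and not in the SD between arrays. It does not cancel in the mean ratios, since RANK-/- was Cy5 in pair 1 and Cy3 in pairs 2 and 3. Over all genes too the pair SD was larger, its median being 5.19 times the median technical SD. In 16 members (44.4%) the 3 ratios spanned at least 1 on the log2 scale, compared with 27.1% of all genes. In 12 members (33.3%) at least 1 pair differed 2-fold or more, compared with 14.9% of all genes. These sorted cells were measured in bulk, in which fewer cells of a type and less RNA per cell cannot be told apart.

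Hexokinases trap glucose in the cell by phosphorylation, and the set holds a pair of them. Hk1 had log2 intensities of 14.42, 14.24 and 14.18 in the RANK-/- channels of pairs 1, 2 and 3, and of 13.90, 13.55 and 13.60 in the RANK+/+ channels. The channels did not overlap, and Hk1 was the only member in which every RANK-/- value lay above every RANK+/+ value (3.66% of all genes had this). Its log2 ratios were 0.52, 0.69 and 0.58, a mean of 0.60 ± 0.09 (SD, n = 3; SE 0.14), with the smallest pair SD of the 36 genes. The unadjusted limma p was 0.0105 and the adjusted p 1.00. A dimmer second probe of Hk1 gave 0.11, 0.42 and 0.17. With median centring in place of loess the ratios were 0.77, 0.24 and -0.25, so the sign in pair 3 rested on the intensity-dependent normalization. With the 6 arrays entered as separate replicates, which treats technical arrays as independent, Hk1 passed limma (adjusted p 0.0124). Hk2, the hexokinase that hypoxia and growth signals induce, had log2 intensities of 9.87, 10.89 and 9.98 in the RANK-/- channels and of 11.53, 9.93 and 9.59 in the RANK+/+ channels. The RANK+/+ RNA of pair 1 was the highest and the RANK+/+ RNA of pair 3 the lowest, and the log2 ratios were -1.66, 0.96 and 0.39 (mean -0.10 ± 1.38). Without pair 1 its mean was 0.67.

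The upper steps turn glucose phosphate into triose phosphates. Phosphofructokinase, the committed step, is built from liver (Pfkl), muscle (Pfkm) and platelet (Pfkp) type subunits. Pfkl was higher in the RANK-/- channel of all 3 pairs by small amounts, with log2 ratios of 0.38, 0.06 and 0.15 and intensities of 12.55, 12.21 and 12.53 against 12.17, 12.15 and 12.39. These channels overlapped, and the mean of 0.20 ± 0.16 gave a limma adjusted p of 1.00. With median centring the mean of Pfkl was -0.06. Pfkm had intensities of 11.68, 11.15 and 11.65 in the RANK-/- channels and 10.75, 11.39 and 11.04 in the RANK+/+ channels, with ratios of 0.94, -0.24 and 0.61. It was among the 3 highest members in pairs 1 and 3. Pfkp ran the other way, at -0.67, 0.63 and -0.07. The aldolase Aldoc, mostly known from brain, was the highest member in pair 1, with intensities of 17.21, 17.24 and 16.70 in the RANK-/- channels and 15.91, 17.15 and 16.73 in the RANK+/+ channels. The RANK+/+ RNA of pair 1 stood below the other 5, and the ratios were 1.31, 0.09 and -0.03. Its widely expressed relative Aldoa was at 0.10, -0.11 and 0.49. The isomerases Gpi1 (-0.56, 0.21 and -0.18) and Tpi1 (-0.68, 0.35 and -0.23) had one order of signs.

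The lower steps yield ATP and pyruvate. Pgk1, which makes the first ATP of the pathway, had ratios of -1.03, 0.59 and -0.30, and Pgam1 had -0.67, 0.28 and 0.22. Of the enolases, Eno1, the form of most tissues, stayed between -0.10 and 0.12. With median centring Eno1 was at 0.38, -0.52 and -1.14, and with the Agilent processed signals at 0.12, 0.20 and 0.13. Eno2, the neuronal form, lay between -0.36 and 0.32 by a dim probe (log2 intensity 7.14 to 7.59). With the Agilent processed signals Eno2 lay between -0.54 and 0.50. Pkm, the pyruvate kinase of most tissues other than liver, was at -0.24, 0.27 and 0.59. Gapdh, by its brightest probe, was at 0.05, -0.11 and -0.28. Gapdh has 7 probes on this array, and they gave different answers, as described below.

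Slc16a3, which encodes MCT4, the lactate exporter of glycolytic cells, had the largest pair SD of the 36 genes. Its intensities were 10.26, 11.92 and 9.20 in the RANK-/- channels of pairs 1, 2 and 3, and 12.48, 10.45 and 10.63 in the RANK+/+ channels. The highest RNA was RANK+/+ in pair 1 and the next was RANK-/- in pair 2, so the channels overlapped. Its ratios of -2.22, 1.47 and -1.43 are signals at 0.215, 2.77 and 0.371 times the RANK+/+ channel, and their mean of -0.73 ± 1.94 was within the spread of the pairs (95% interval by limma -2.82 to 1.37). Ldhb, the subunit that favors lactate use, had intensities of 13.28, 13.46 and 12.68 in the RANK-/- channels and 12.19, 12.95 and 13.30 in the RANK+/+ channels. Its ratios were 1.08, 0.50 and -0.62, higher in RANK-/- in pairs 1 and 2 and lower in pair 3. Slc16a1 (MCT1), which carries lactate both ways, lay between -0.26 and 0.06 by a dim probe (log2 intensity 6.657 to 6.955). With the Agilent processed signals the ratios of Slc16a1 were 0.205, -0.541 and 0.092. Ldha, the subunit that favors lactate formation, was at -0.17, -0.27 and 0.42 by its brightest probe.

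Of the 3 regulators of flux, 2 were lower in every pair. PFKFB enzymes set the level of the sugar bisphosphate that activates phosphofructokinase. Pfkfb4 had intensities of 7.86, 8.66 and 8.39 in the RANK-/- channels and 9.69, 8.90 and 9.05 in the RANK+/+ channels. The groups did not overlap, with ratios of -1.83, -0.24 and -0.66 and a mean of -0.91 ± 0.82 (SE 0.35; unadjusted limma p 0.0554, adjusted p 1.00). The mean was -0.45 without pair 1 and -1.25 without pair 2, so that pair 1 carried much of its size. A second Pfkfb4 probe was well above background on 0 arrays for RANK-/- and 1 for RANK+/+ and was not used. Pfkfb3, the form with the highest kinase activity, had intensities of 11.44, 11.22 and 11.67 in the RANK-/- channels and 11.78, 12.38 and 11.97 in the RANK+/+ channels. Every RANK-/- value again lay below every RANK+/+ value, and the ratios were -0.34, -1.16 and -0.30 (mean -0.60 ± 0.49, SE 0.23, unadjusted limma p 0.0575). Without pair 2 the mean was -0.32. A second probe of Pfkfb3 gave -0.67, -0.45 and -0.08. Pdk1, the kinase that keeps pyruvate out of mitochondrial oxidation, was at -0.69, 0.12 and -0.45.

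Among the genes of oxygen sensing, Hif1a encodes the oxygen-regulated alpha subunit of HIF. Its ratios were -0.58, 0.91 and -0.66, with the RANK-/- RNA of pair 2 at 10.75 and the other 5 RNAs between 9.38 and 10.39. Egln1, the main oxygen sensor, was at -0.99, 0.46 and 0.04 by a dim probe (log2 intensity 6.453 to 7.635). With the Agilent processed signals Egln1 was at -1.84, 1.15 and -0.15. Egln3, a HIF target that acts back on HIF, had intensities of 13.47, 13.43 and 12.90 in the RANK-/- channels and 13.66, 13.57 and 13.78 in the RANK+/+ channels. The groups did not overlap, although the gaps in pairs 1 and 2 were small, with ratios of -0.19, -0.14 and -0.88 (mean -0.40 ± 0.41, unadjusted limma p 0.124). Without pair 3 the mean was -0.16. A second probe of Egln3 gave -0.23, -0.18 and -1.09. In all, 3 members (Pfkfb3, Pfkfb4 and Egln3) had channels that did not overlap with RANK-/- lower, compared with 3.82% of all genes, and 1 (Hk1) with RANK-/- higher.

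**Figure D2:**
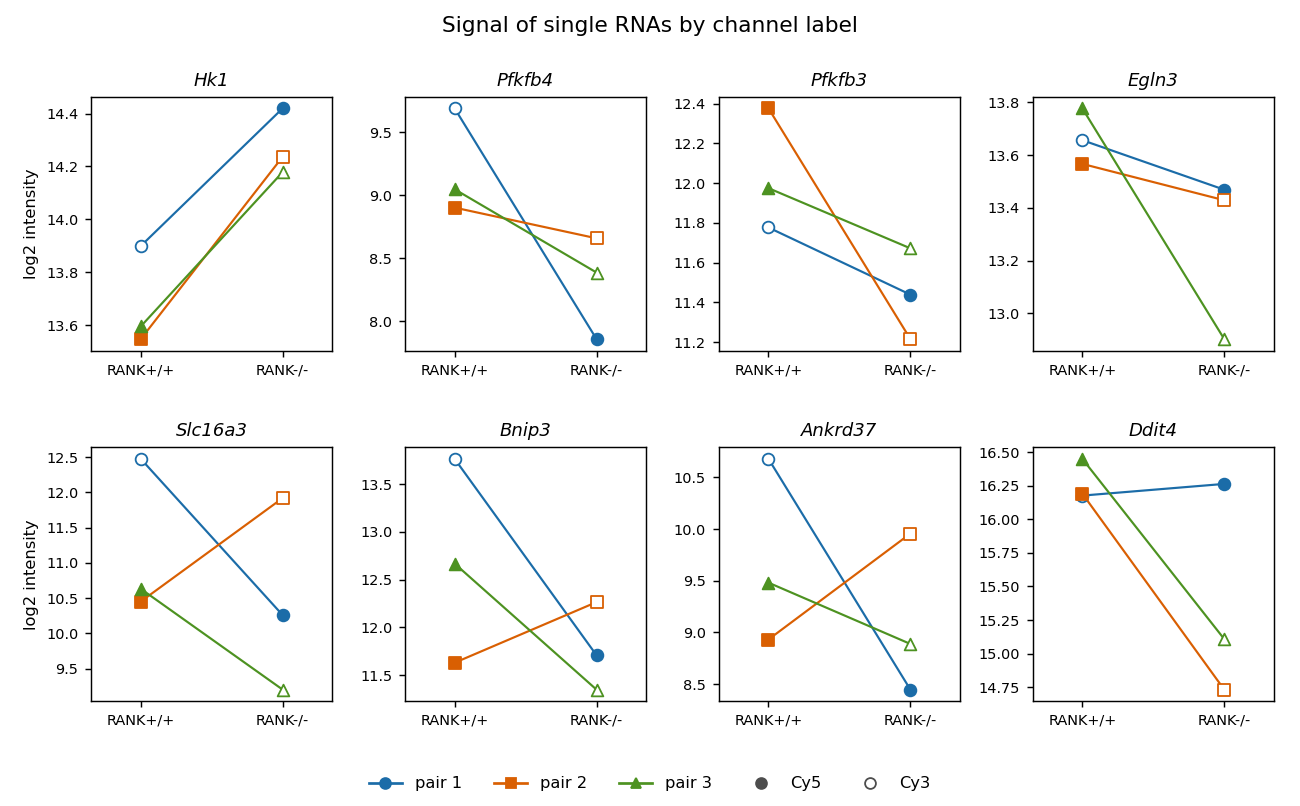
Normalized log2 intensity (y axis, its own range in each panel) of 8 genes in the RANK+/+ and RANK-/- channels of the 3 pairs; lines join the RNAs of 1 pair, filled symbols are Cy5 and open symbols Cy3. In the upper row the genotypes do not overlap; in the lower row Slc16a3, Bnip3 and Ankrd37 cross between pairs, and for Ddit4 the RANK-/- RNAs of pairs 2 and 3 stand below the other 4.

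Car12, a carbonic anhydrase at the cell surface, was lower in all 3 pairs with ratios of -0.25, -0.47 and -0.09. Its intensities of 13.95, 13.86 and 14.37 in the RANK-/- channels overlapped with 14.20, 14.33 and 14.46 in the RANK+/+ channels, and its mean of -0.27 was -0.17 without pair 2. Car9, the carbonic anhydrase most used as a hypoxia marker, was at 0.39, -0.03 and -0.21. Adm, which encodes the vessel peptide adrenomedullin, was among the lowest members in pair 2, with intensities of 11.38, 10.57 and 11.44 in the RANK-/- channels against 12.27, 11.61 and 11.35, and ratios of -0.89, -1.04 and 0.09. Vegfa, the vessel growth factor, had intensities of 12.63, 12.23 and 12.84 in the RANK-/- channels against 12.59, 12.55 and 12.19, and ratios of 0.05, -0.32 and 0.65. For Adm and Vegfa the channels overlapped and the limma adjusted p was 1.00.

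The lowest single ratio of the set, in pair 1, belonged to Ankrd37 of the mitochondrial and stress genes. Bnip3, a receptor that tags mitochondria for removal, had intensities of 11.71, 12.27 and 11.35 in the RANK-/- channels of pairs 1, 2 and 3 and 13.77, 11.63 and 12.67 in the RANK+/+ channels, with ratios of -2.06, 0.64 and -1.32 (mean -0.92 ± 1.39). Its other probes gave -1.50, 0.19 and -1.56, and, for the dimmest, -0.68, 0.33 and -0.62 with a mean of -0.32. The mean of the brightest probe was -0.34 without pair 1 and -1.69 without pair 2. Ankrd37, a small ankyrin repeat protein that hypoxia induces, had intensities of 8.45, 9.96 and 8.89 in the RANK-/- channels and 10.68, 8.93 and 9.48 in the RANK+/+ channels, with ratios of -2.23, 1.03 and -0.59 (mean -0.60 ± 1.63). In both genes, as in Slc16a3, the RANK+/+ RNA of pair 1 was the highest of the 6 and the order of the genotypes turned in pair 2. Slc16a3 and Ankrd37 were the only 2 members at least 2-fold lower in one pair and at least 2-fold higher in another. Higd1a, a protein of the inner mitochondrial membrane, was at -0.82, 0.04 and -0.18. Ddit4, a stress-induced inhibitor of mTOR signaling, had intensities of 16.26, 14.73 and 15.11 in the RANK-/- channels and 16.18, 16.19 and 16.45 in the RANK+/+ channels. Its ratios of 0.09, -1.46 and -1.34 had a mean of -0.91 ± 0.86 (unadjusted limma p 0.0634), which was -1.40 without pair 1. Ndrg1, a gene of differentiation and stress, was the highest member in pair 3, with intensities of 13.59, 12.88 and 13.99 in the RANK-/- channels against 14.48, 13.40 and 12.91 and ratios of -0.88, -0.52 and 1.08. The collagen prolyl hydroxylase subunits were P4ha1 (-0.38, 0.18 and -0.38) and P4ha2 (-0.83, -0.08 and -0.19). P4ha2 was lower in all 3 pairs, but its intensities of 11.16, 11.08 and 10.68 in the RANK-/- channels overlapped with 11.99, 11.16 and 10.87 in the RANK+/+ channels, and its mean of -0.37 was -0.14 without pair 1.

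Across all 3 pairs, 5 members were lower in RANK-/- (Pfkfb3, Pfkfb4, Egln3, Car12 and P4ha2) and 2 were higher (Hk1 and Pfkl). Of all genes 9.65% were lower and 9.93% higher in this way, so the counts of members are near the background. With median centring, 9 members were lower and 0 higher in every pair, and all genes then split into 15.4% lower and 3.81% higher. Pfkfb3, Pfkfb4 and P4ha2 kept one sign in all pairs with median centring, with the Agilent processed signals and with the series table, while Hk1, Egln3, Car12 and Pfkl lost it with median centring, and Pfkl also with the Agilent processed signals. With those signals 4 members were higher in all pairs, as were 9.84% of all genes. In the remaining 2 pairs, 8 members were lower without pair 1, 17 without pair 2 and 8 without pair 3, and 6, 6 and 5 were higher. The 17 are the 5 lower in every pair and 12 that were higher only in pair 2. Each 8 is the same 5 and 3 that were higher only in the pair left out. Of all genes, 15.4% were higher only in pair 1, 17.0% only in pair 2 and 7.90% only in pair 3. Lower only in pair 1 were 13.5% of all genes, only in pair 2 18.8% and only in pair 3 7.89%. With a pair left out, these genes join the 9.65% lower or the 9.93% higher in every pair. The share of all genes in 2 pairs is thus also larger than in 3.

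The most frequent order of signs was lower, higher and lower in pairs 1, 2 and 3. It was found in 12 members (33.3%; 17.0% of all genes): Gpi1, Pfkp, Tpi1, Pgk1, Eno2, Slc16a3, Pdk1, Hif1a, Bnip3, Higd1a, Ankrd37 and P4ha1. This order was noticed in the values themselves and is given as a description. Of these 12, 8 (Pfkp, Pgk1, Eno2, Slc16a3, Hif1a, Bnip3, Ankrd37 and P4ha1) kept it with median centring, the Agilent processed signals and the series table. Pfkp lost it with its dimmest probe. Across the 36 genes, pairs 1 and 2 correlated with a Pearson r of -0.37, pairs 1 and 3 with 0.36 and pairs 2 and 3 with -0.17 (over all genes -0.28, 0.18 and -0.08). These correlations run across genes, which share the same arrays and are not independent replicates.

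Proliferation markers had the same order of signs. All 8 tested (Mki67, Top2a, Ccnb1, Cdk1, Aurka, Mcm2, Mcm5 and Pcna) were below 0 in pairs 1 and 3 and above 0 in pair 2, with medians of -0.78, 0.70 and -1.01, and their mean log2 intensity ranged from 10.42 to 11.27 in the RANK-/- channels and from 10.54 to 11.48 in the RANK+/+ channels. Of 9 tested leukocyte markers, 7 were below 0 in pair 1. The neutrophil genes S100a8 and S100a9 were at -3.99 and -4.12 there and between -0.25 and 0.07 in the other pairs. The others were closer to 0 in pair 1, from -0.93 (Ptprc), -0.65 (Csf1r), -0.39 (Cd52), -0.28 (Adgre1) and -0.11 (Lyz2) to 0.02 (Cd3e) and 0.49 (Itgam). The mean intensity of the 9 was 10.03 in the RANK+/+ RNA of pair 1 and 8.14 to 8.93 in the other 5, S100a8 and S100a9 included. Fibroblast markers had medians of -0.002, 0.86 and 2.01 and were at least 2-fold higher in pair 3 in 7 of 7 (mean intensity 13.16 to 13.71 in the RANK-/- channels and 11.62 to 13.21 in the RANK+/+ channels), and luminal markers had medians of 0.45, -0.55 and 0.53. S100a8 and S100a9 were named after their values were seen, and S100a9 passed the background test on 4 arrays for RANK-/- against 6 for RANK+/+. The part of these markers in the ratios of the 36 genes was not tested. Without pair 1, the mean ratio changed sign in 15 members, Slc16a3 (0.02) and Ankrd37 (0.22) among them. The share of all genes whose mean changed sign in this way was not counted.

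**Figure D3:**
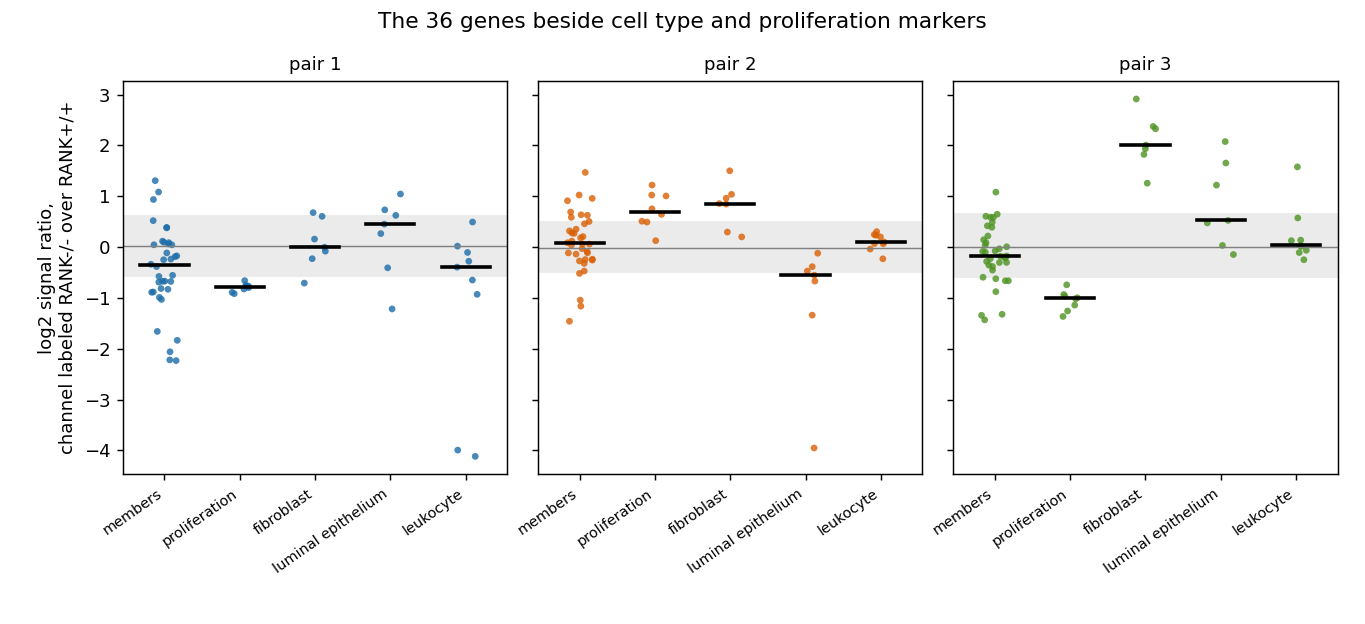
Log2 signal ratio of the channel labeled RANK-/- over RANK+/+ (y axis) in pairs 1, 2 and 3 for the 36 genes and for markers of proliferation (8 genes), fibroblasts (7), luminal epithelium (7) and leukocytes (9). Points are genes, black bars medians, the gray band the range between the lower and upper decile of all genes; the proliferation markers lie below the line in pairs 1 and 3 and above it in pair 2, and 2 leukocyte genes lie near -4 in pair 1.

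In 7 of the 36 members the Cy5 over Cy3 ratio had the same sign in all 3 pairs. This is a smaller share than the 28.8% of all genes that had this. Hk2, Pgam1, Pkm and Egln1 were always lower in Cy5, and Gapdh, Car9 and Ddit4 always higher. For these 7 genes the dye and the turn between pair 1 and the other pairs cannot be told apart. A fit with a dye term, which weights pair 1 as much as pairs 2 and 3 together, called 0 members (smallest limma adjusted p 1.00). Among those 7 genes it moved the mean of Hk2 from -0.10 to -0.49 and that of Egln1 from -0.17 to -0.37, and among the others that of Slc16a3 from -0.73 to -1.10 and that of Ankrd37 from -0.60 to -1.01. The 5 members lower and the 2 higher in every pair had 1 sign in both dye arrangements by definition, which is no test of the dye.

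HIF binds DNA at short cores, and the RefSeq promoter table (build GRCm38.p6) was searched for ACGTG and GCGTG on both strands, from 250 bases before to 50 bases after each transcript start. Windows were found for 35 of the 36 genes, and Ndrg1 is named only. At least 1 core stood in a window of 31 of the 35 genes (88.6%), compared with 46.7% of all 27025 genes in the table, and in 39 of 49 windows (79.6%), compared with 43.8% of all 32851 windows. ACGTG alone was found in 55.1% of the member windows and 19.6% of all windows, and GCGTG in 57.1% and 32.4%. The member windows were also rich in CG, with a median of 20 CG dinucleotides against 7 over all. Among all windows with at least 20, 29.0% held ACGTG, 63.5% held GCGTG and 73.6% held either. These windows had a median of 28 CG, and the member windows were not cut at 20, so the compared windows still differ in CG content. Of the 12 members with the order lower, higher and lower, 9 held a core, as did 4 of the 5 members lower in every pair, both members higher in every pair and 16 of the 16 others with a window. A match is a description of the letters and says nothing of binding in these cells.

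The 250 bases upstream of the start are shown for genes on which the results turn, 5′ to 3′ on the coding strand, with every match to a core in capitals (CACGT and CACGC are the cores on the other strand, and overlapping matches run together). Slc16a3, Bnip3, Ankrd37 and Pgk1 had the order lower, higher and lower with cores close to the start or in groups, Tpi1 had the same order with no core, and Pfkfb4 and Egln3 were lower in every pair with 1 core each. The windows lie at chr11:120948817-120949066 (Slc16a3, plus strand), chr7:138909507-138909756 (Bnip3, minus strand), chr8:45999851-46000100 (Ankrd37, minus strand), chrX:106186850-106187099 (Pgk1, plus strand), chr9:108991652-108991901 (Pfkfb4, plus strand), chr12:54203875-54204124 (Egln3, minus strand) and chr6:124814159-124814408 (Tpi1, minus strand).
Slc16a3: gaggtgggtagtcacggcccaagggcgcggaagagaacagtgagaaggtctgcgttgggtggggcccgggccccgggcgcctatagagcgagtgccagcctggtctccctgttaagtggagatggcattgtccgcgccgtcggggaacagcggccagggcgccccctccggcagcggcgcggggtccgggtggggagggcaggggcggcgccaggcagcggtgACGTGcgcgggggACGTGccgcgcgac
Bnip3: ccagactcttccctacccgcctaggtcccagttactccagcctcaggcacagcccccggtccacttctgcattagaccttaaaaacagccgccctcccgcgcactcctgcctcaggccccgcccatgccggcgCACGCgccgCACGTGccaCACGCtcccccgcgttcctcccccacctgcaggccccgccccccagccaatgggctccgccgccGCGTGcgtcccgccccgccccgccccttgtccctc
Ankrd37: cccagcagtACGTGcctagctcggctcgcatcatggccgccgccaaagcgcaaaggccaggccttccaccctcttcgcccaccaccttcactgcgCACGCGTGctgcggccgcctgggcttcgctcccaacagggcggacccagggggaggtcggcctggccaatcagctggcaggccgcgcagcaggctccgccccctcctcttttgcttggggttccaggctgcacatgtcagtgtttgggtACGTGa
Pgk1: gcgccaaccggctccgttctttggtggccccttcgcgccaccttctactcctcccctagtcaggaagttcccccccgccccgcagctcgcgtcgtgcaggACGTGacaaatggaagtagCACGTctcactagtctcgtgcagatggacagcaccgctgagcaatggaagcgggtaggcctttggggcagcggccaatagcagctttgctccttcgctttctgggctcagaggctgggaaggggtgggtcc
Pfkfb4: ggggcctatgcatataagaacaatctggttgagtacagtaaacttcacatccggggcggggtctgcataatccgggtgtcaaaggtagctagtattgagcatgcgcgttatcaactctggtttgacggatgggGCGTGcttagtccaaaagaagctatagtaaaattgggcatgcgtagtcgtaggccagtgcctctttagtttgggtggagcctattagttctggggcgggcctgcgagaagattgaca
Egln3: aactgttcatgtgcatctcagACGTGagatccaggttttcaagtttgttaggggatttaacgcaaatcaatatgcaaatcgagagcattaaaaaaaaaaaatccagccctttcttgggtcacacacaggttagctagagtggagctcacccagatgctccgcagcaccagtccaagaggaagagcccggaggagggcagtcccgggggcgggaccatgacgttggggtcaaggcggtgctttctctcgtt
Tpi1: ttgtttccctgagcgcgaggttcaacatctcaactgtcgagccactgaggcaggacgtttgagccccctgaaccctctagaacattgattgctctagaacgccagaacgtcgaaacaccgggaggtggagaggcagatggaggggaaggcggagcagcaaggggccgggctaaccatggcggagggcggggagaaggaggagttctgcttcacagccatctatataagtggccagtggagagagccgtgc

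In these sequences Slc16a3 has 2 cores within 27 bases of the start, Bnip3 has 5 matches between 117 and 35 bases upstream, and Ankrd37 has 4 matches, the nearest 6 bases upstream. Pgk1 has a core 150 and another 131 bases upstream, Pfkfb4 has one at 117 and Egln3 one at 229. Tpi1 with no match and Pgk1 with 2 had the same signs in the 3 pairs.

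Several genes had more than 1 probe, and these repeat the measurement within the same RNAs. Of 13 members with at least 2 probes past the filter, 9 had one sign pattern over all their probes (Bnip3, Egln3, Gpi1, Higd1a, Hk1, P4ha1, Pfkfb3, Slc16a3 and Tpi1). A second probe of Slc16a3 gave -2.41, 1.64 and -1.46, close to the first. The 7 probes of Gapdh did not give one answer. The 4 brightest lay between -0.32 and 0.05 in all pairs, whereas the 3 dimmest were at -0.60, -1.05 and -1.02 in pair 1 and 0.31, 0.61 and 0.47 in pair 2. Ldha had the same feature, with -0.17, -0.27 and 0.42 from the brightest probe and -0.87, 0.30 and 1.05 from the dimmest. The Vegfa probes disagreed in pair 1, at 0.05 and -1.01, and the dim probe of Pfkp stayed between -0.02 and 0.03. Gapdh has many near-identical copies in the genome, and which of them each probe reads is not given in the sources used here. With median centring Gapdh was at 0.313, -0.78 and -1.425. Why its probes differ was not tested, and the ratios of Gapdh are uncertain.

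**Figure D4:**
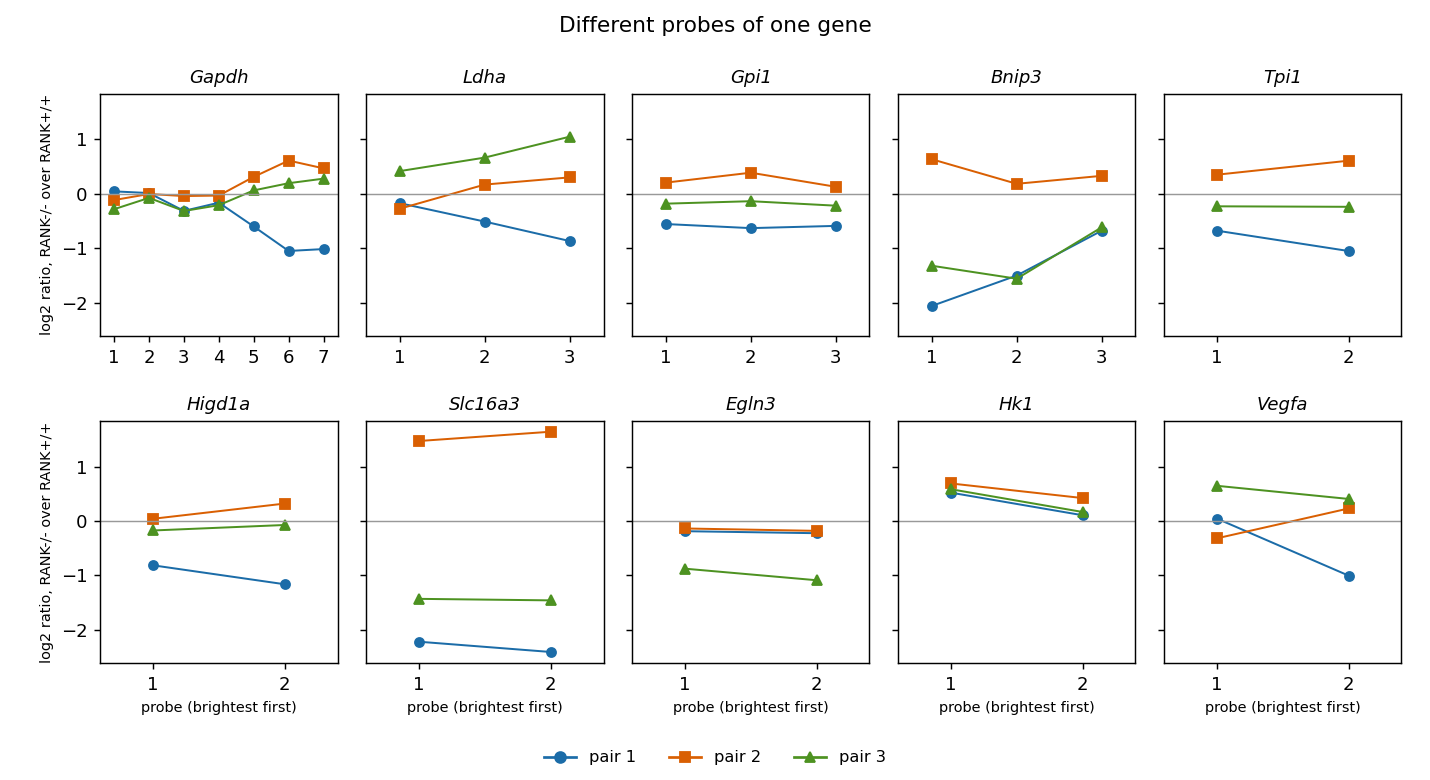
Log2 signal ratio of the channel labeled RANK-/- over RANK+/+ (y axis) for each probe past the filter of 10 genes, ordered from the brightest to the dimmest probe (x axis), in pairs 1, 2 and 3. The lines of Slc16a3, Gpi1 and Egln3 run nearly level, while Tpi1 goes from -0.68 to -1.05 in pair 1. The Gapdh probes run from 0.05, -0.11 and -0.28 at the brightest to -1.02, 0.47 and 0.28 at the dimmest. Those of Ldha run from -0.17, -0.27 and 0.42 to -0.87, 0.30 and 1.05.

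Other genes of the same pathways, on lists of known function that were drawn up with earlier results of these data known, gave 0 calls by limma and 0 by the rank product. As background to the counts below, 9.65% of all genes were lower and 9.93% higher in all pairs. Of 5 transporters of glucose and lactate, 0 had one sign in all pairs. The 2 of smallest p, neither past the threshold, were Slc2a1, the main glucose transporter of tumors (-1.35, -0.89 and 0.37), and Bsg, the chaperone of the lactate transporters (-0.56, 0.21 and -0.15). Of 17 tested isoenzymes and side branches, 2 were lower (Pfkfb1 and Pgm2) and 1 higher (Gpd2) in all pairs. The smallest p values there belonged to the gluconeogenic enzyme Fbp2 (-0.11, 1.45 and 1.48) and to Pfkfb1 (-0.46, -0.06 and -0.45), which did not pass. Of 13 genes for pyruvate entry into mitochondria, 1 was lower (Pdp1) and 1 higher (Pcx). Pdp1, the phosphatase that opposes Pdk1, was at -0.14, -1.05 and -0.65 (unadjusted limma p 0.0474), and Pdhb, a subunit of pyruvate dehydrogenase, at -0.40, -0.85 and 0.06, and neither passed. Of 13 HIF subunits and oxygen sensing genes, 3 were higher in all pairs (Egln2, Hif1an and Siah2) and 0 lower. Hif1an, the asparagine hydroxylase that blocks HIF, was at 0.41, 0.17 and 0.37, and Egln2, another prolyl hydroxylase, at 0.27, 0.14 and 0.60, without passing. Of 29 other tested HIF targets, 2 were lower (Edn1 and Ero1a) and 3 higher (Gbe1, Loxl2 and Plod1) in all pairs. Edn1, which encodes the vessel-constricting peptide endothelin, was at -0.44, -1.71 and -1.33, with non-overlapping channels (unadjusted limma p 0.0139, adjusted p 1.00). The next smallest p belonged to Ppp1r3c, a glycogen-targeting subunit, at 0.32, -1.83 and -1.43. The medians of these 29 targets were -0.32, 0.07 and 0.04 in pairs 1, 2 and 3, beside -0.36, 0.07 and -0.18 for the 36 genes. Across these lists, channels did not overlap for Edn1, Pfkfb1 and Pdp1 with RANK-/- lower, as for 3.82% of all genes. Nor did they for Gpd2, Siah2 and Plod1 with RANK-/- higher, as for 3.66% of all genes.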

How the data were processed

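Gene expression was measured on 6 SurePrint G3 2-color arrays, which the authors scanned and extracted with Agilent Feature Extraction (version 10.7.3.1). The deposited scanner tables hold the median intensity and local background intensity of each spot, and, per the file headers, processed intensities and a log10 ratio of Cy5 over Cy3. A further deposited table gives the authors' normalized log2 ratios without stating their direction. Set against the scanner ratios, each of its columns was RANK-/- relative to RANK+/+, with medians of -0.008 to 0.007. The processed intensities and this table served as alternatives only.

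Median signals were corrected with normexp (offset 50), loess and Aquantile in limma 3.58.1 (R 4.3.3, with the package data.table, version 1.17.8), without control and outlier spots (212 to 260 per array). Saturated spots numbered 0. Ratios were turned by the dyes in the labels, and arrays A and B were averaged. A probe was kept if, for one genotype, it passed the scanner's background test on arrays A and B in 2 or more pairs (30230 of 55681), and the brightest probe stood for a gene. Symbols came from RefSeq by accession (28026 probes matched). The spatial loess named in the methods was an alternative. The 3 pair ratios were tested with limma (two-sided) and the rank product (500 draws), which takes the spread of all genes as equal. Both were also run on simulated ratios, drawn independently for each gene and pair and without a dye effect. That run does not show how they behave in these pairs. An exact sign-flip test of 3 pairs cannot go below p = 0.25. All arrays lay on 1 slide, so slides could not be compared, and the number of arrays limits the precision. The methods describe dye swaps, but arrays A and B of a pair carry the same dyes in the labels.

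The members and lists were chosen with earlier results of these data known. Channel intensities were printed for members with one sign in all pairs and for the 3 highest and 3 lowest members of each pair, and also for Hif1a, and pair ratios for every member, for Tnfrsf11a and for the 2 genes of smallest p in each other pathway list. Other listed genes were named to show which genes a count covers. Marker lists for basal epithelium, endothelium, pericytes, erythroid cells and immediate-early genes were also run, and their medians are given with the other observations.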

Additional observations from a re-analysis of the deposited data

How the results depend on the processing

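Calls depended on how technical arrays were entered. With the 6 arrays as separate replicates limma called 298 genes, 1 of them a member (Hk1, 0.60), while a random block for the pair gave 13 genes and 0 members. No other setting gave a limma call, and the rank product called 0 members under every setting that could be fitted. With no filter it called 35 genes, and leaving out one pair 2 to 22 (4 without pair 1, 2 without pair 3), against 20 with all pairs. The replicate block is built into each pair ratio, and the fit with no replicate block called 0 members, with a median member ratio of -0.11.

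The median member ratio was -0.11. It was -0.43 with median centring, which moved the median of all genes to -0.14, and -0.34 to 0.016 leaving out one pair. Lower in all pairs were 9 members with median centring (15.4% of all genes) and 8 to 17 when only 2 pairs were left. Higher in all pairs were 0 with median centring (3.81% of all genes), 4 with the processed signals (9.84%) and 5 to 6 with 2 pairs. For 2 pairs the share over all genes rises too. To the 9.65% lower in every pair it adds the 7.90% to 17.0% that were higher only in the pair left out. To the 9.93% higher in every pair it adds the 7.89% to 18.8% that were lower only in that pair.

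Of the 36 mean ratios, 13 kept their sign in all 19 alternatives, of which both other filters leave the members' ratios as they are. With median centring 7 turned: Pfkl (-0.06), Aldoa (-0.37), Aldoc (-0.067), Eno1 (-0.43), Pkm (-0.20), Car9 (-0.23) and Vegfa (-0.14). Ldha, near 0, turned to 0.003 with offset 16, 0.006 with spatial loess, 0.18 with processed signals, 0.045 with the series table, 0.088 with the mean over probes and 0.028 with array A alone. Gapdh turned to 0.06 with processed signals and Car9 to -0.037 with the series table. The dimmest probe, chosen after seeing the data, turned Pfkp (0.013), Ldha (0.16) and Vegfa (-0.12). Leaving out each pair in turn gave Hk2 -0.64 to 0.67, Gpi1 -0.37 to 0.013, Pfkp -0.37 to 0.28, Aldoa -0.008 to 0.29, Tpi1 -0.45 to 0.062, Pgk1 -0.67 to 0.14, Pgam1 -0.23 to 0.25, Eno1 -0.021 to 0.088, Eno2 -0.23 to 0.10, Ldha -0.22 to 0.12, Ldhb -0.059 to 0.79, Slc16a1 -0.12 to 0.035, Slc16a3 -1.83 to 0.019, Hif1a -0.62 to 0.17, Egln1 -0.48 to 0.25, Car9 -0.12 to 0.18, Vegfa -0.14 to 0.35, Ndrg1 -0.70 to 0.28 and Ankrd37 -1.41 to 0.22. The cause was not tested.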

Other observations

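The other marker lists gave further values by pair. All 4 pericyte genes (Cspg4, Kcnj8, Pdgfrb and Rgs5) were higher in RANK-/- in pairs 1 and 3 and lower in pair 2, with median log2 ratios of 0.77, -0.66 and 0.72 in pairs 1, 2 and 3. All 7 endothelial genes were above 0 in pair 3, and their medians were -0.001, -0.25 and 0.52. The medians were 0.58, 0.002 and 0.13 for 6 basal genes, -0.13, -0.09 and 0.34 for 4 tested erythroid genes, and 0.12, -0.45 and 0.21 for 9 immediate-early genes. None of these lists held a gene called by limma or the rank product (0 each), and none held a gene with an unadjusted limma p under 0.05 (0).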
